A study of Arabidopsis thaliana with 6 samples.

Results

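Transcripts were measured in roots and rosette leaves of lead-treated and untreated Arabidopsis thaliana. Among those whose probe set names exactly 1 gene, 15 were both bright and nearly level on every array. They were selected on the measured signals themselves: a probe set had to name exactly 1 gene, reach a signal of at least 300 on all 6 arrays, and keep the highest of its 6 signals under 1.5 times the lowest. Of 3794 probe sets that name 1 gene, 137 reached the signal minimum and 15 of those met both conditions, each for a different gene. These 15 are 0.395% of the named probe sets and 10.9% of the bright ones. Because all 6 signals were used to choose them, every value of these transcripts below is a description, and none is tested.

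The plants, all of accession Col-4, were raised hydroponically with 22 °C days of 10 h and 18 °C nights of 14 h, and sampled at growth stage 6. There were 6 groups with 1 array each: roots given no lead, 25 ppm or 50 ppm lead, and rosette leaves given no lead, 25 ppm or 50 ppm lead. The nutrient solution was dosed with lead nitrate on 2 occasions, and the control plants received none. The series was made to look for genes behind the uptake and tolerance of lead, whereas the transcripts described here are those that moved least. No group has a replicate array, so no value carries an error, and how many plants gave each RNA sample is not stated in the labels.

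The organ labels were checked against marker genes. Leaf markers, 6 probe sets of 3 genes out of 10 listed, read between 3.3 and 55.9 on the root arrays and between 941.1 and 6483.3 on the leaf arrays. Root markers, 4 probe sets of 4 genes out of 13 listed, read between 1003.1 and 3037.2 on the root arrays and between 1.1 and 8.4 on the leaf arrays. All 4 are class III peroxidases, so the root check rests on a single gene family. The signals have trimmed means near 100 on every array, between 100.125 and 100.175, so a level signal means level relative to the rest of the array. In whole organs, fewer cells of a type and less RNA per cell cannot be told apart. The scanner background averaged 192.65 on the array of roots given 50 ppm lead, against 69.03 to 97.8 on the other 5 arrays.

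A plant organ is built on a common base of processes that every living cell runs: making protein on ribosomes, respiring in mitochondria, making amino acids in plastids, moving vesicles between membranes and keeping up a cytoskeleton. Genes for such work are often called housekeeping genes, and some serve as reference genes against which other transcripts are measured. Roots and leaves still differ in how much of each process they need, since leaf cells are packed with chloroplasts while root tips hold dividing cells. The functions named below for loci that carry no symbol are general knowledge of these Arabidopsis loci and do not come from the deposited files.

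Protein synthesis was represented by 2 of the 15. The locus AT2G04520 encodes translation initiation factor eIF1A, which helps the small ribosomal subunit settle on the start codon. Its signals were 620.5, 720.1 and 684.0 in roots at 0, 25 and 50 ppm lead, and 588.1, 537.1 and 546.6 in leaves at the same doses. All 3 root arrays lay above all 3 leaf arrays, although the whole range was only 1.34-fold. AT4G34670 encodes S3a, a protein of the small cytosolic ribosomal subunit. It read 3138.0, 3121.0 and 2357.5 in roots at 0, 25 and 50 ppm, and 2751.8, 2172.3 and 2125.4 in leaves at the same doses. The 50 ppm root array fell among the leaf arrays, so the organs overlapped, and the range was 1.48-fold, close to the limit. After quantile normalisation AT4G34670 ranged 2.21-fold, with every root array above every leaf array and a root over leaf ratio of 1.75.

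Energy metabolism gave 3 members. AT5G11770 encodes a small iron-sulfur subunit of complex I, the mitochondrial enzyme that takes electrons from NADH. Its signals were 882.3, 922.5 and 798.4 in roots at 0, 25 and 50 ppm lead, and 637.5, 630.6 and 683.3 in leaves. Roots lay above leaves without overlap, with a root mean of 867.7 against a leaf mean of 650.5, a ratio of 1.33 and the highest root over leaf ratio of the 15.

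The beta subunit of succinyl-CoA ligase, a tricarboxylic acid cycle enzyme that yields ATP, is encoded by AT2G20420. Its roots read 476.3, 559.8 and 481.8 at 0, 25 and 50 ppm and its leaves 402.5, 380.3 and 421.8. Here again every root array was above every leaf array, by 1.26-fold in the means. ATNTT2, a carrier in the plastid envelope that exchanges ATP for ADP, went the other way in its means, which were 468.5 in roots and 511.8 in leaves. Its root arrays read 505.7, 475.6 and 424.1 at rising dose, and its leaf arrays 542.5, 465.2 and 527.8. The organs overlapped, and the range of 1.28-fold was the second narrowest of the 15.

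Amino acid synthesis gave 2 members, both for plastid enzymes. OTC, ornithine carbamoyltransferase, joins carbamoyl phosphate to ornithine on the way to arginine. It read 703.8, 861.9 and 714.1 in roots at 0, 25 and 50 ppm lead, and 831.6, 846.0 and 925.7 in leaves. The 25 ppm root array was inside the leaf range while the other root arrays were below it. AT3G58610 encodes ketol-acid reductoisomerase of the valine, leucine and isoleucine pathway. Its signals were 893.7, 971.0 and 695.3 in roots and 1036.6, 953.0 and 880.8 in leaves, in dose order. The low 50 ppm root array set its range of 1.49-fold, the widest of the 15, and the organs overlapped.

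Membrane traffic and the cytoskeleton gave 3 members. A word search of the gene table for vesicle traffic and small GTPases reached 6 named probe sets, 2 of them bright and 0 steady. The bright ones were RAB6A, with a range of 1.58-fold, and PRA1.B4, with 2.25-fold. The words did not reach AT2G19790 or AT2G43160. With only 2 bright probe sets, the search cannot say whether membrane traffic was level as a whole. AT2G19790, for the sigma subunit of the AP-4 adaptor complex that sorts cargo at the trans-Golgi network, had the narrowest range of all, 1.21-fold. It read 440.6, 430.5 and 367.6 in roots at 0, 25 and 50 ppm, and 363.0, 405.3 and 366.5 in leaves. The 50 ppm root array lay among the leaf arrays, and the other root arrays lay above them.

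AT2G43160 encodes an epsin, a clathrin adaptor that binds membrane lipid. Its roots read 536.8, 468.7 and 410.7 with rising lead and its leaves 365.8, 408.8 and 478.5, so the signals ran down with dose in roots and up with dose in leaves, and the organs overlapped. TUB6, a beta-tubulin of the microtubules, read 506.2, 495.0 and 381.7 in roots and 380.3, 559.5 and 420.8 in leaves. Its highest signal was the 25 ppm leaf array and its lowest the control leaf array, and the organ means of 461.0 in roots and 453.5 in leaves were 1.02-fold apart.

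PRXR1 is a class III peroxidase, one of a large family of secreted enzymes that use hydrogen peroxide at the cell wall. It read 2958.7, 2690.9 and 2395.5 in roots at 0, 25 and 50 ppm, and 2011.4, 2947.2 and 2857.5 in leaves. The control leaf array was the lowest of the 6, the lead-treated leaf arrays lay within the range of the root arrays, and the root over leaf ratio was 1.03. After quantile normalisation, which gives every array the same distribution of signals, PRXR1 read 3647, 3004 and 3685 in roots and 1850, 2293 and 2539 in leaves. Every root array was then above every leaf array, with a range of 1.99-fold, so its level pattern holds for the signals as deposited. The measured root markers of the organ check are other class III peroxidases, listed because they mark roots, so the family is not level as a whole.

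The remaining 4 have no function assigned here beyond a family name for one. AT3G48140, a B12D family protein, read 2997.9, 3038.1 and 2332.0 in roots and 2351.9, 2511.9 and 2628.8 in leaves, with the 50 ppm root array lowest. After quantile normalisation AT3G48140 read 3767, 3597 and 3477 in roots and 2107, 2033 and 2380 in leaves, with roots above leaves and a range of 1.85-fold. AT2G04900 read 554.8, 674.5 and 551.2 in roots and 563.3, 492.4 and 554.6 in leaves, where only the 25 ppm root array stood above the rest. AT4G25670 read 328.0, 342.3 and 424.5 in roots and 390.6, 455.4 and 453.5 in leaves. Its control and 25 ppm root arrays were below all leaf arrays, and its root over leaf ratio of 0.842 was the lowest of the 15. AT1G27290 read 924.6, 637.0 and 750.3 in roots and 887.2, 903.6 and 926.6 in leaves, with both lead-treated root arrays below the other 4.

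**Figure D1:**
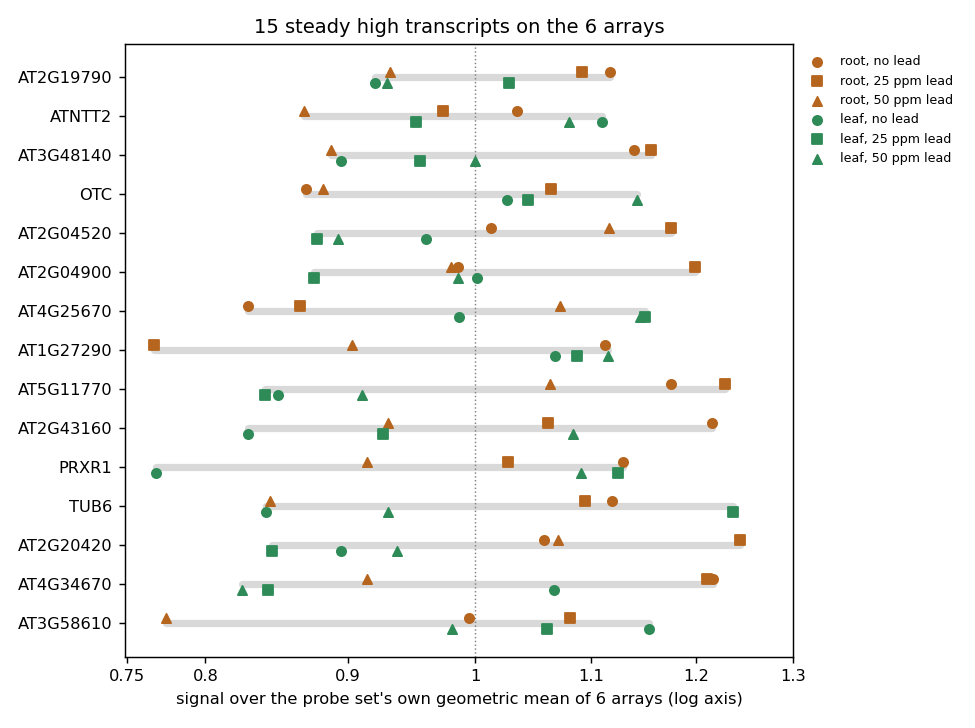
Each row is 1 of the 15 steady high transcripts, in order of rising range, and each point is 1 array's signal divided by the geometric mean of that probe set's 6 signals (log axis). Brown points are roots, green points leaves, and the shape gives the lead dose. The organs are apart for AT2G04520, AT5G11770 and AT2G20420, and overlap for the other 12.

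Set side by side, the 15 showed small organ differences inside the limit. Every root array was above every leaf array for 3 of the 15, against 54.0% of the bright named probe sets, and every leaf array was above every root array for 0, against 7.30%. The 1.5-fold limit itself bounds both counts. They also move with the scaling of the arrays. After quantile normalisation, roots lay above leaves for 6 of the 15 and leaves above roots for 0, against 85 and 8 of the 137 bright named probe sets. With arrays scaled to the median of probe sets that reach 100 everywhere, roots lay above leaves for 1, AT5G11770, and leaves above roots for 5. Among the same 137 bright named probe sets, these counts were 52 and 17. That scaling moved the arrays by -0.18 to 0.15 on the log2 scale, root arrays down and leaf arrays up. As deposited, the root mean was higher for 10 of the 15, against 114 of the 137 bright named probe sets, and the leaf mean for 5. The root over leaf ratio of the 15 ran from 0.842 to 1.33 with a median of 1.09. Among the 122 bright named probe sets that were not steady, it ran from 0.313 to 4.18 with a median of 1.49.

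Within an organ, the 15 had a lower median spread in leaves than in roots. The highest over the lowest of the 3 root arrays had a median of 1.24 and a range of 1.16 to 1.45. The same ratio over the 3 leaf arrays had a median of 1.14 and a range of 1.04 to 1.47. Among all bright named probe sets, 57.7% kept the 3 root arrays within 1.5-fold and 79.6% kept the 3 leaf arrays within it, so the greater spread in roots was not limited to the 15.

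With lead in the solution, the signals of the 15 differed from the control in both directions. In roots the 25 ppm signal was 0.689 to 1.22 times the control (median 1.01) and the 50 ppm signal 0.751 to 1.29 times (median 0.834). Both lead-treated root arrays were above the control for 4 members and below it for 7, where 23.4% and 21.2% of the bright named probe sets did so. The 50 ppm root array read below the 25 ppm one for 13 of the 15, and for 83.9% of the bright named probe sets. In leaves the 25 ppm signal was 0.789 to 1.47 times the control (median 1.02) and the 50 ppm signal 0.772 to 1.42 times (median 1.05), with both lead arrays above the control for 8 members and below it for 5. Among the bright named probe sets these were 22.6% and 51.8%. In all, 6 members had both lead arrays on opposite sides of the control in roots and in leaves, against 21.2% of the bright named probe sets. The doses share 1 control array in each organ, so they are not separate evidence.

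The 50 ppm root array held the highest signal of none of the 15 and the lowest of 3. Relative to each probe set's own geometric mean, the members' median on that array was 0.915, against 1.11 in control roots and 1.09 in roots at 25 ppm. The other bright named probe sets had medians of 1.07 at 50 ppm, 1.27 in control roots and 1.38 at 25 ppm, so the 50 ppm array was the lowest root array for both sets. This is the array with the raised scanner background, and its part in the lower signals was not tested.

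**Figure D2:**
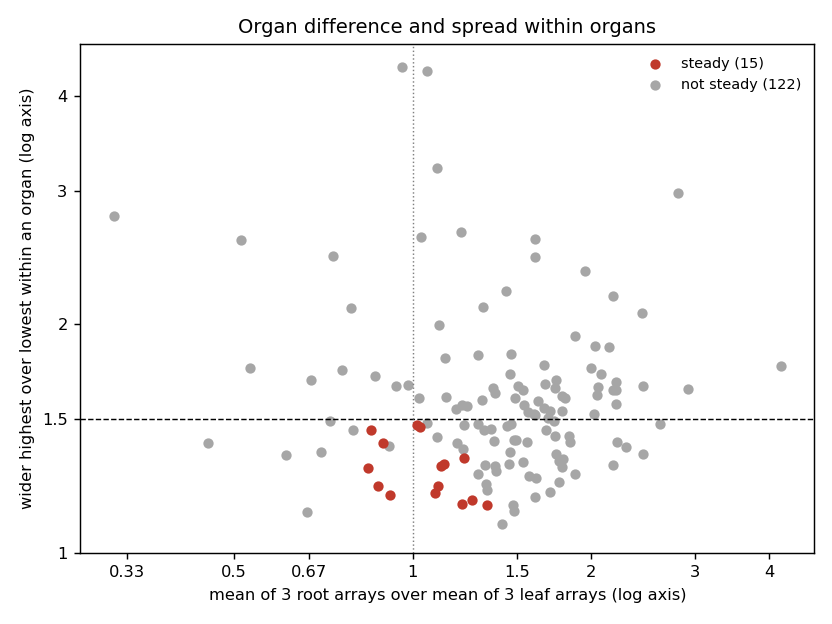
Each point is 1 of the 137 bright named probe sets, placed by the mean of its root arrays over the mean of its leaf arrays (x, log axis) and by the wider of its highest over lowest ratios within roots or within leaves (y, log axis). The 15 steady probe sets lie below the dashed limit of 1.5 and between 0.842 and 1.33 on the x axis, with 53 others that are level within each organ but reach 1.5-fold or more over all 6 arrays.

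The bright transcripts that missed the limit were sorted by whether each organ was level on its own. Of the 137, 68 were level within roots and within leaves, and 53 of those 68 were not level over all 6 arrays. Their root mean was the higher one for 46 and their leaf mean for 7, and some had nearly equal organ means, such as AT5G51400 with a root over leaf ratio of 1.06. A further 41 were not level within roots only, 11 within leaves only and 17 within either organ.

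The share of level probe sets was lowest among the dimmest and varied little above them. Over all named probe sets at any brightness, 4.77% kept the 6 signals within 1.5-fold. The share was 1.78% where the lowest signal was under 25, 12.0% from 25 to 100, 8.78% from 100 to 300, 10.4% from 300 to 1000 and 13.6% at 1000 or more. The last band holds 22 probe sets, 3 of them members. Among 4453 probe sets that name several genes or are unnamed here, 50 met the signal and range conditions (1.12%), and their functions were not analysed here. Over all non-control probe sets, named or not, 402 were bright and 65 of these were steady. That share of 16.2% is higher than the 10.9% among the bright named ones.

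To see whether whole pathways were level or single genes, the members' pathways were followed through lists of loci. The lists were drawn up from general knowledge after the values had been seen, so their counts are descriptions. Cytosolic ribosomal proteins, the parts of the machine that makes protein, supplied 38 of the 137 bright named probe sets and 1 of the 15 steady ones, AT4G34670. The root mean was higher for 38 of the 38, with a median root over leaf ratio of 1.78, and every root array was above every leaf array for 30. Over all 137 the root mean was higher for 114, the median ratio was 1.46 and roots lay above leaves for 74. The highest over lowest ratios of the 38 ran from 1.48 to 6.54 with a median of 2.60, against a median of 2.13 over all 137. With the arrays scaled to the median of probe sets that reach 100, the root mean was higher for 37 of the 38, the median root over leaf ratio was 1.48 and roots lay above leaves for 24. Over all 137 these values were 96, 1.22 and 52 under that scaling. Without the ribosomal proteins, 14 of 99 bright probe sets were steady as deposited, or 14.1%.

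Of 25 listed loci for translation factors, 5 had a named probe set and 2 were bright: AT2G04520 and EIF4A-2, an RNA helicase that unwinds messenger RNA leaders. EIF4A-2 read 678.8, 1088.4 and 853.1 in roots at 0, 25 and 50 ppm and 771.2, 654.5 and 877.8 in leaves, a range of 1.66-fold. The 25 ppm root array was its highest, and the organs overlapped.

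Complex I had 9 bright probe sets of 8 genes, and AT5G11770 was the only one under the limit, a share of 11.1% beside 10.9% of all bright named probe sets. The other 8 were near it or further out, with AT2G02050 at 1.54, AT2G33220 at 1.58 and AT1G79010 at 1.60 on one probe set and 2.44 on another. The list was level within leaves for 9 of 9 and within roots for 8 of 9, where 79.6% and 57.7% of the bright named probe sets were. Every root array was above every leaf array for 8 of 9, against 54.0%, with root over leaf ratios of 1.33 to 2.18. With the median scaling roots lay above leaves for 6 of the 9, against 52 of the 137 bright named probe sets. The root mean was then higher for 9 of 9, against 96 of the 137. AT5G11770 therefore had the same order of the organs as its neighbours in the complex, and its ratio of 1.33 was at the low end of theirs.

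The vacuolar proton ATPase, which acidifies the vacuole and is another large enzyme of all plant cells, had 8 bright probe sets and 0 steady ones. All 8 were level within leaves and 2 were level within roots, where 79.6% and 57.7% of the bright named probe sets were. The ranges of the 8 ran from 1.57 to 2.64. At 10.9% fewer than 1 of 8 would be steady, so its lack of a member does not set it apart, and under the median scaling its lowest range was 1.47.

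The shorter lists had few bright probe sets. Of 9 named probe sets for tricarboxylic acid cycle enzymes, the succinyl-CoA ligase probe set was the only bright one. Among 4 named tubulin probe sets, TUB6 alone was bright on all arrays. The list for arginine and branched-chain amino acid synthesis had 3 bright probe sets, which were those of OTC and AT3G58610, and 2 of these were steady. In each of these lists the other named probe sets fell under the signal minimum on at least 1 array.

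**Figure D3:**
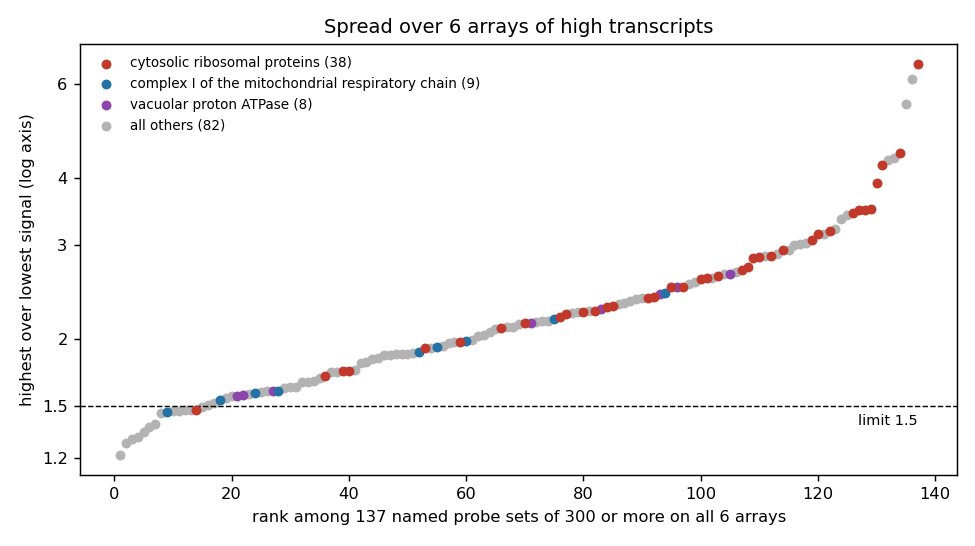
The 137 named probe sets with a signal of 300 or more on all arrays are ranked by the highest over the lowest of their 6 signals (y, log axis), and the dashed line is the limit of 1.5. Cytosolic ribosomal proteins (38, red) have 1 point under the line, complex I (9, blue) has 1, and the vacuolar proton ATPase (8, purple) has none, with its lowest at 1.57.

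For 3 members the array carries another named probe set assigned to the same gene. These other probe sets went through the same rule and did not meet it, so their values are descriptions too. Ketol-acid reductoisomerase, AT3G58610, read 1409.8, 1789.9 and 1077.2 in roots at 0, 25 and 50 ppm and 1432.8, 1549.4 and 1373.9 in leaves on its other probe set. Its range there was 1.66-fold. The 50 ppm root array was again the lowest and the 25 ppm root array the highest, where the steady probe set had the control leaf array highest.

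The ribosomal protein AT4G34670 differed more between its probe sets. Its other one read 1979.4, 1318.2 and 1200.6 in roots and 1044.0, 787.5 and 753.2 in leaves, a range of 2.63-fold. All root arrays were above all leaf arrays there, by 1.74-fold in the means, against 1.22-fold on the steady probe set. The order of doses was the same on both, with the control array highest and the 50 ppm array lowest in each organ. The name of the steady probe set ends in _i_at, which marks an incomplete set of probes, and that of the other in _s_at, which marks probes that can match similar transcripts. As another Arabidopsis gene encodes the same ribosomal protein, both values are uncertain as values of one gene.

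The epsin AT2G43160 read 6.9, 1.0 and 3.5 in roots and 0.9, 0.5 and 1.2 in leaves on its other probe set, near 0 on every array. The other probe set thus gave almost no signal where the steady one was bright. The other 12 members have only 1 named probe set. OTC, AT2G04900, PRXR1 and AT2G20420 also carry the _s_at suffix, so related transcripts may add to their signals.

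**Figure D4:**
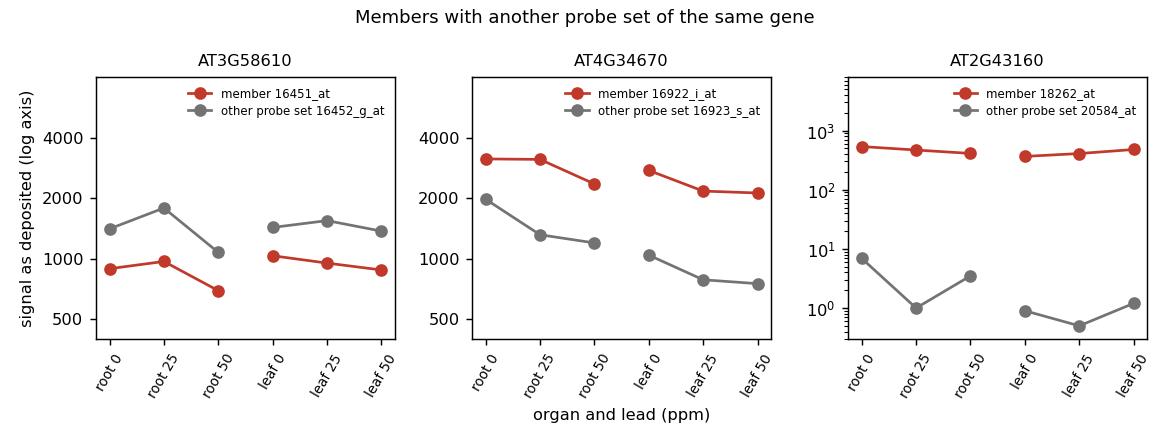
The 3 members with another named probe set are drawn with the signals as deposited (log axes, with a wider range for AT2G43160) for roots and leaves at 0, 25 and 50 ppm lead, the steady probe set in red and the other in grey. Both probe sets of AT3G58610 are lowest in roots at 50 ppm but differ in their highest array, the other probe set of AT4G34670 is further apart between the organs, and that of AT2G43160 stays at or under 6.9.

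The steady transcripts were set beside genes that are in common use as Arabidopsis references. Of 30 such genes listed, 4 had a named probe set, and 1 of these, TUB6, is a member. AT4G26410, a gene known as a stable reference in Arabidopsis, read 132.8, 137.8 and 125.9 in roots at 0, 25 and 50 ppm and 119.2, 125.0 and 103.9 in leaves. Its range of 1.33-fold was under the limit, but its signals were under the minimum of 300. The beta-tubulin TUB9 read 572.7, 520.0 and 457.7 in roots and 290.8, 369.8 and 299.6 in leaves. It ranged 1.97-fold, with every root array above every leaf array, so the beta-tubulins TUB6 and TUB9 differed in their organ ratio, which was 1.02 for TUB6 and 1.61 for TUB9 as deposited, and 0.845 and 1.35 with the median scaling. Another listed reference, AT4G33380, was dim, between 35.4 and 74.9, with a range of 2.12-fold.

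The plant control probe sets that the array maker placed on the array were also set beside them. The control for actin, a cytoskeletal protein, read 1619.8, 1928.2 and 1581.2 in roots and 1213.8, 1331.0 and 1218.4 in leaves, a range of 1.59-fold with roots above leaves. The probe sets for the glycolytic enzyme GAPDH ranged 2.42-fold to 3.72-fold, and those for ubiquitin, the tag for protein breakdown, 1.57-fold to 2.27-fold. All 7 control probe sets were bright on every array and 0 stayed within 1.5-fold, beside 10.9% of the bright named probe sets. With so low a share, 0 of 7 does not set the controls apart.

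At the edges of the rule the values ran on without a gap. Just inside the range limit were AT2G20420 at 1.47, AT4G34670 at 1.48 and AT3G58610 at 1.49, and just outside it AT1G24360 at 1.51, AT5G51400 at 1.52 and AT2G02050 at 1.54. AT1G24360 encodes a plastid reductase of fatty acid synthesis, and read 663.8, 917.6 and 762.3 in roots and 839.5, 999.4 and 732.7 in leaves. At the signal minimum, the lowest signals just inside were 328.0 for AT4G25670, 363.0 for AT2G19790 and 365.8 for AT2G43160. Just outside were AT2G25430 at 299.1, AT1G27350 at 278.8 and AT4G15930 at 277.7, the last with a range of 1.16-fold, narrower than that of any of the 15.

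Of the 15, 7 stayed steady under each of 3 other scalings of the arrays: AT2G19790, ATNTT2, AT2G04520, AT2G04900, AT5G11770, AT2G43160 and AT2G20420. The other 8 lost the call under at least 1 of them, and PRXR1 and AT1G27290 under 2. The number of steady transcripts also hangs on single arrays. Leaving out the 25 ppm root array gave 32 steady probe sets in place of 15, while leaving out any of the other 5 gave 17 to 22, and the 15 were kept each time because fewer arrays can only loosen the rule. The loci of the 15 lie on all 5 chromosomes, with 3 on chromosome 1, 5 on chromosome 2, 2 on chromosome 3, 3 on chromosome 4 and 2 on chromosome 5.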

How the data were processed

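Total RNA of roots and rosette leaves was hybridised to a 1-colour Affymetrix Arabidopsis array of 8297 probe sets, 1 array per organ and dose. The deposited values are linear intensity signals, 1 per probe set and array, between 0 and 8583. The signal algorithm and scaling are not given in the sources used here. The 6 columns were analysed as deposited, without further normalisation. After 50 control probe sets were set aside, 8247 remained. The platform annotation, matched to RefSeq genes (assembly TAIR10.1), named exactly 1 gene for 3794 (3592 loci; 10 had no match in the table), several genes for 70 and none for 4383.

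Probe sets were steady if all 6 signals were at least 300 and the highest over the lowest was under 1.5. Ratios between organs are of means of 3 arrays. No test was made, since the rule used all values and no group has a replicate; the number of arrays limits the precision. The members and lists were chosen with earlier results of these data known. The 7 pathway lists (358 loci) were added because word searches of the gene table (19 groups) reached 198 of 3794 named probe sets and 2 members, PRXR1 and TUB6. Members named are those with the lowest ranges, those at the thresholds, those with another probe set and those with the largest organ ratios, which together are all 15. The alternatives were 3 other scalings, limits of 1.25 and 2, minimums of 150 and 600, all non-control probe sets, and leaving out each array. The code was tested on simulated data. Python 3.11.15, pandas 2.3.3, numpy 2.4.6 and matplotlib 3.10.9 were used. Sequences of the members were not used here.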

Additional observations from a re-analysis of the deposited data

Results flagged for a closer look

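For 6 of the 15, both lead-treated arrays lay on one side of the control in roots and on the other side in leaves, as did 21.2% of the 137 bright named probe sets. With 1 array per group this difference was not tested, and all 6 stayed within the 1.5-fold limit. The mean of the lead arrays over the control in roots, divided by the same ratio in leaves, was 0.596 for PRXR1, 0.672 for TUB6, 0.675 for AT2G43160, 0.727 for AT1G27290, 0.852 for AT2G19790 and 1.23 for AT2G04520. AT2G04520 was thus above its control in lead-treated roots and below it in lead-treated leaves, and the other 5 ran the opposite way.

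Outside the main measurement, the 9 hybridisation spike probe sets, which read RNA added in the laboratory, gave on the 25 ppm leaf array a median of 1.71 times their control leaf signal. Of the 15, 2 had their highest signal on this array and 4 their lowest, and the members' median over their own geometric mean was 0.956. That median was close to the 0.960 on the control leaf array. The 1.5-fold limit kept every member from a rise as large as that of the spikes. The members therefore cannot show whether transcripts followed the spikes. The reason for the higher spike signals was not tested.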

How the results depend on the processing

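The count of 15 steady probe sets depends on where the limits are set. It was 1 at the narrower limit tried (AT2G19790) and 61 at a limit of 2, 29 at a minimum signal of 150 and 7 at 600, and 65 over all non-control probe sets. Scaling to a common trimmed mean kept all 15, which follows from the deposited trimmed means being nearly equal already. Quantile normalisation gave 12 steady probe sets, 11 of them among the 15, and lost AT1G27290, AT3G48140, AT4G34670 and PRXR1. Scaling to the median of probe sets with at least 100 on every array gave 31, of which 9 were among the 15, and lost AT1G27290, AT3G58610, AT4G25670, OTC, PRXR1 and TUB6. The share of bright named probe sets that were steady was 21.4% under that scaling, 0.730% at the narrower limit and 44.5% at 2, against 10.9% as reported. Steady probe sets with all roots above all leaves numbered 7 under the median scaling, 0 at the narrower limit, 22 at 2, 5 at a minimum of 150 and 1 at 600, against 3 as reported. Those with all leaves above all roots numbered 1 under the median scaling and 4 at a limit of 2, against 0. Steady probe sets whose gene has another named probe set that is also level numbered 4 among the 61 at a limit of 2, against 0. The planned word search of the gene table reached no named probe set for cytosolic ribosomal proteins. Its count of steady ones was thus fixed at 0 in advance under every alternative run, and does not show whether they were level. By the locus list added after the data were seen, steady cytosolic ribosomal proteins numbered 1 as reported. They numbered 0 with quantile normalisation, 3 with the median scaling, 0 at the narrower limit and 6 at 2. Leaving out 1 array at a time gave 17 to 32 steady probe sets, a share of 11.7% to 22.4% and 1 to 3 ribosomal ones, with the highest values without the 25 ppm root array (32, 22.4% and 3). The cause of these shifts was not tested, except that a wider limit, a lower minimum or fewer arrays can only add probe sets. The planned share of promoters with a motif was not run. Root and leaf arrays could be matched by dose, but no paired test was made, because the rule chose the members on all 6 signals. Signals have no replicate, so a 1.5-fold range cannot be set against measurement error.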
